A study of Mus musculus with 20 samples.

Results

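The 34 genes described here encode the matrix that fibroblasts of the meninges lay down around the brain, the enzymes that build and cut it, and the transcription factors and transport proteins that mark those fibroblasts. They were taken by symbol from the platform's annotation of the Affymetrix mouse genome array and are 34 of the 18193 genes that have a probe set with 1 symbol. They are measured by 75 of the 45037 probe sets tested. The members were compared between whole brains of WT and HDAC4 KO mice at postnatal day 3, with 10 arrays per genotype, 5 per labelled sex, and 1 brain per array. Both genotypes came from an Hdac4 knock-out colony kept on B6CBAF1/OlaHsd, in which homozygotes were bred by intercrossing heterozygotes, and no animal was treated. The knock-out is carried in every cell type and HDAC4 KO mice live into early postnatal life, so the brains are those of constitutive null neonates. The sources used here do not say which part of Hdac4 the allele lacks.

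The meninges are layers of connective tissue that cover the brain, and their fibroblasts secrete fibrillar collagens, small leucine-rich proteoglycans that sit on the fibrils, and glycoproteins that link them to cells. Lysyl oxidases cross-link the fibrils, proteinases cut them, and inhibitors hold the proteinases in check. The same fibroblasts express Foxc1 and Tbx18, make retinoic acid with Aldh1a2 and secrete the prostaglandin D synthase Ptgds. Many matrix genes are also used by cells of vessel walls and by the stroma of the choroid plexus, so in RNA of a whole brain the members report on all of these.

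Signals were log2 values, and a difference of 1 on that scale is a doubling. The signals of different probe sets share no scale, so only differences between arrays are compared. The array median ranged from 6.26 to 6.32. Every member was above its array's median in 10 or more arrays at its brightest probe set, which is the probe set with the highest mean over the 20 arrays, and so were 60 of the 75 member probe sets. Hdac4 fell by 1.39 (SE 0.12, adjusted p = 6.28e-07, limma) at its brightest probe set, from 7.92 ± 0.16 to 6.53 ± 0.36 (SD, n = 10 each), with WT replicate 8 and HDAC4 KO replicate 10 the nearest to the other genotype. Sex-linked genes went against the labelled sex in 3 arrays, WT replicates 5 and 9 and HDAC4 KO replicate 10. The gap between 3′ and 5′ control probe sets for actin and Gapdh, a sign of RNA length, was 0.19 ± 0.03 in WT and 0.22 ± 0.03 in HDAC4 KO arrays (log2, SD, n = 10 each).

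Promoters are shown for the members that carry the results, Postn because it fell, and Col1a2 and Col3a1 because their signals rose and fell together across arrays. The letters are the 250 bases before the annotated start from RefSeq on GRCm38.p6, all on the plus strand, and capitals mark the TATA box TATAAA, the NFY motif CCAAT and the motif CTANNNNTAG, which is of the kind bound by MEF2 factors, to which HDAC4 is known to bind. Postn at chr3:54360857-54361106, Col1a2 at chr6:4505368-4505617 and Col3a1 at chr1:45311288-45311537 read as follows.
Postn: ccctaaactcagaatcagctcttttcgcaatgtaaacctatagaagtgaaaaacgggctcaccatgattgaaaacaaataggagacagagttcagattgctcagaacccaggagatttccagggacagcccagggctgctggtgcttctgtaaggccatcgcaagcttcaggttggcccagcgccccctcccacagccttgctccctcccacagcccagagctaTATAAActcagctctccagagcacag
Col1a2: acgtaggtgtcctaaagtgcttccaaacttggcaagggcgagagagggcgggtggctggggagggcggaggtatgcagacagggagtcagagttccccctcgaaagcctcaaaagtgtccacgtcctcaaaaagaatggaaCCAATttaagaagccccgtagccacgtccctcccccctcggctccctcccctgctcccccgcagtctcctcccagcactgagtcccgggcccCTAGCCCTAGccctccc
Col3a1: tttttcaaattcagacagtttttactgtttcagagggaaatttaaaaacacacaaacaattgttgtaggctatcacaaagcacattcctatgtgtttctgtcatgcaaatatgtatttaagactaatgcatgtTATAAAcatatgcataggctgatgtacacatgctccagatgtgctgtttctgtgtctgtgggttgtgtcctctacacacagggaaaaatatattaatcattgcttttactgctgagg
Postn, which has a second annotated start further upstream, held TATAAA 26 bases before the start printed here, and Col3a1 held it 117 bases before its start. Col1a2 held CCAAT 109 bases and CTANNNNTAG 17 bases before its start, and was the 1 member of 24 with a promoter entry to hold the latter. The 4 middle letters there are not the A and T of the MEF2 consensus. The 24 members have 29 promoters, as some have several annotated starts. Over all 32851 promoters of this length, searched on both strands, 12.4% held TATAAA, 33.8% CCAAT and 3.20% CTANNNNTAG, against 4, 7 and 1 of the 29 member promoters. TGTGGT, the core letters bound by RUNX factors, was in 5 of the 29 member promoters (of Col8a1, Foxc1, Ogn and Slc6a13) and 14.0% of all promoters. GGGCGG, bound by SP1, was in 12 of the 29 and 32.7% of all promoters, and CATTCC, bound by TEAD factors, was in 4 of the 29 and 12.6%. These are matches of letters and do not show that a factor is bound.

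Lox and Mmp2 rose in HDAC4 KO brains and Postn fell, and no other member passed an adjusted p of 0.05. That made 2 of the 75 member probe sets higher, or 2.67%, where 1.05% of all probe sets were higher, and 1 lower, or 1.33%, where 1.01% of all were lower. At the brightest probe set of each gene, 2 members were higher (1.45% of all genes) and 1 was lower (0.517% of all genes). The median log2 fold change of the 34 members was −0.004 against 0.01 over all genes, with 15 members positive, 19 negative and 22 within 0.1 of 0. The median size of the difference, whatever its sign, was 0.07 for the members and 0.05 for all genes. At an unadjusted p under 0.05 stood 26.5% of the members and 19.0% of all genes. The members varied more between arrays than most genes did, with a median SD within genotype of 0.14 against 0.11 for all genes and 0.09 for genes above the array median. In no member probe set did the 10 WT and the 10 HDAC4 KO arrays separate fully, which 0.0777% of all probe sets did. A change in the number of fibroblasts and a change in RNA per fibroblast cannot be told apart in RNA of whole brains.

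**Figure D1:**
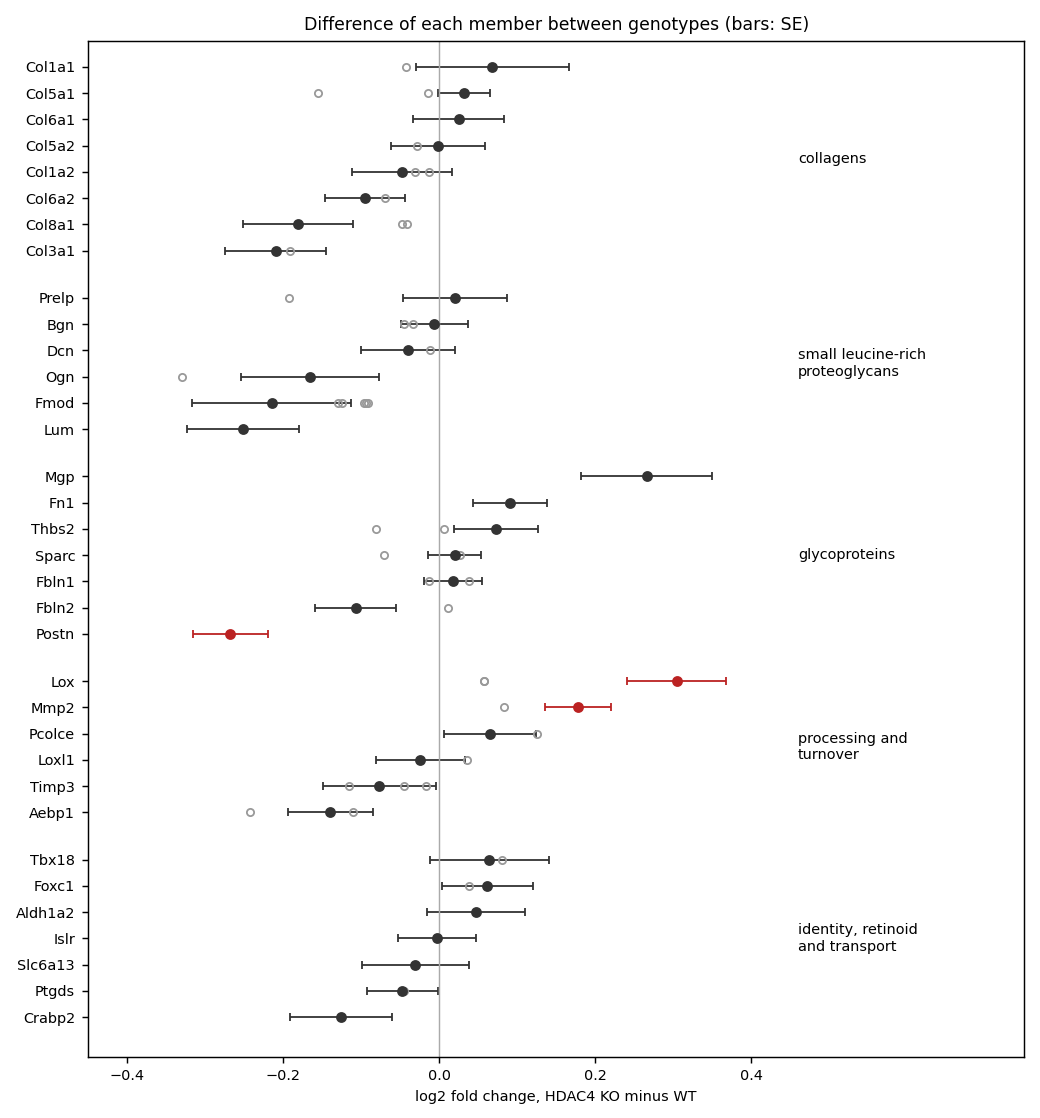
The log2 fold change (HDAC4 KO minus WT, x axis) is drawn for each of the 34 members by group, as a filled point with its SE at the brightest probe set and as open circles at the gene's other probe sets; red marks adjusted p under 0.05. Lox and Mmp2 lie to the right, Postn to the left, and most members lie within 0.1 of 0.

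Among the 6 genes of matrix processing and turnover, Lox and Mmp2 were the 2 that rose. Lox, the lysyl oxidase that starts collagen cross-links, ranged from 6.91 to 7.42 in WT (median 7.30) and from 7.41 to 7.89 in HDAC4 KO arrays (median 7.52) at its brightest probe set. All but 1 of the HDAC4 KO arrays lay above the highest WT array. Lox thus rose by 23.5%, or 0.30 in log2 units with an SE of 0.06 (adjusted p = 0.0203, limma). The other probe sets of Lox differed by 0.06 each and did not pass (adjusted p = 0.777 and 0.680). Averaged over its probe sets the gene differed by 0.14 (adjusted p = 0.184), and without the 3 arrays whose sex-linked genes disagree with the label by 0.25 (adjusted p = 0.0534). The call was also lost with the gap between 3′ and 5′ controls as a covariate (0.30, adjusted p = 0.0850).

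Mmp2, a gelatinase that cuts denatured collagen, ranged from 7.15 to 7.38 in WT (median 7.27) and from 7.36 to 7.69 in HDAC4 KO arrays (median 7.42) at its brightest probe set. Of the 10 HDAC4 KO arrays, 7 lay above every WT array, and the groups overlapped only at the edge. Its log2 fold change was 0.18 (SE 0.04, adjusted p = 0.0328, limma), or 13.2%. The second probe set differed by 0.08 (adjusted p = 0.205). The call did not hold without WT replicate 4, 5 or 7 (adjusted p = 0.0637, 0.0614 and 0.0604), nor without WT replicate 8 and HDAC4 KO replicate 10 together (0.0639), nor with the 3′ and 5′ covariate (0.20, adjusted p = 0.0841).

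Aebp1, a collagen-binding protein, is the third of this group with a p under 0.05 and went the other way. At its second probe set it ranged from 7.07 to 7.32 in WT and from 6.64 to 7.25 in HDAC4 KO arrays, of which 5 lay below every WT array and the rest within or near their range. The difference was −0.24 (SE 0.07, adjusted p = 0.0843), and −0.14 at the brightest probe set. Loxl1, a relative of Lox, differed by −0.02 at its brightest probe set, Pcolce, which helps to remove the collagen propeptide, by 0.07, and Timp3, an inhibitor of metalloproteinases, by −0.08, none past the test. Other probe sets of the latter genes gave 0.12 for Pcolce (adjusted p = 0.220), with 6 HDAC4 KO arrays above every WT array, and −0.12 for Timp3 (adjusted p = 0.232).

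**Figure D2:**
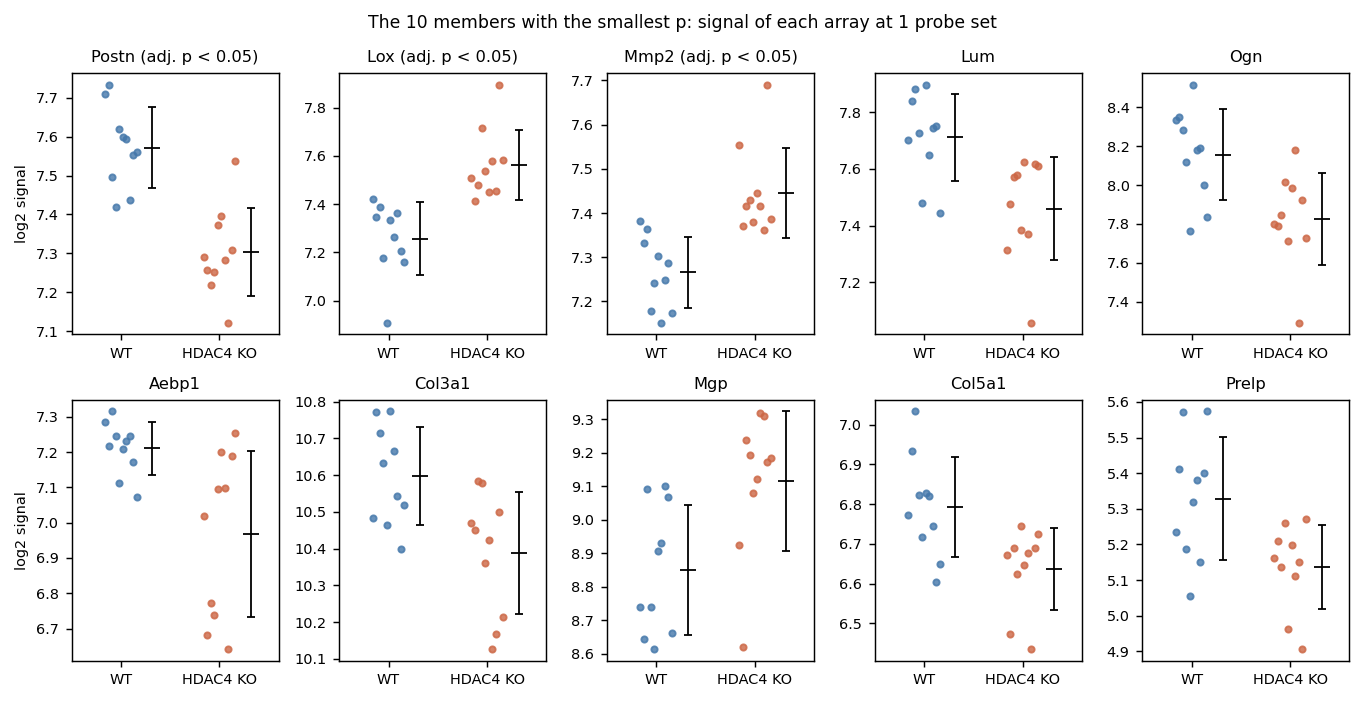
Each panel gives the log2 signal (y axis) of the 10 WT and 10 HDAC4 KO arrays at 1 probe set of a member, with the mean and SD beside the points; axes differ between panels and do not start at 0. In the panels of Postn, Lox and Mmp2 the arrays of the genotypes barely overlap, and in the other panels they overlap more.

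In the group of 7 matrix glycoproteins and matricellular proteins (the glycoproteins for short), Postn was the 1 that changed. Postn encodes periostin, a matricellular protein that binds collagen and integrins, and at its single probe set it ranged from 7.42 to 7.73 in WT (median 7.58) and from 7.12 to 7.54 in HDAC4 KO arrays (median 7.29). All HDAC4 KO arrays except replicate 10 lay below the lowest WT array. HDAC4 KO replicate 10 also had the highest Hdac4 signal of its group, and its sex-linked genes disagree with its label. For Lox and Mmp2 the same array lay above every WT array (7.58 against at most 7.42, and 7.39 against at most 7.38). A link with the Hdac4 signal was not tested. Postn fell by 0.27 (SE 0.05, adjusted p = 0.0143, limma) on the log2 scale. Its signal fell by 16.9%. The call was kept when each array was left out in turn, with adjusted p from 0.00378 to 0.0366, but was lost with the 3′ and 5′ covariate (−0.26, adjusted p = 0.0711).

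Mgp, a vitamin K-dependent inhibitor of calcification, was the member of this group with the next smallest p. It ranged from 8.61 to 9.10 in WT and from 8.62 to 9.32 in HDAC4 KO arrays, where 7 arrays lay above every WT array and replicate 2 lay at the bottom. The difference of 0.27 (SE 0.08) did not pass (adjusted p = 0.0950), and without HDAC4 KO replicate 2 it was 0.32 (adjusted p = 0.0189). Fn1, the fibronectin that bridges cells and collagen, differed by 0.09, Thbs2 (thrombospondin 2) by 0.07, Sparc by 0.02, and the fibulins Fbln1 and Fbln2 by 0.02 and −0.11. None of these passed.

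The 8 collagens gave no call in either direction, and neither did any of their 18 probe sets (limma). At an unadjusted p under 0.05, 2 of the genes were lower and 0 higher, where 19.0% of all genes reached that p in either direction. The median log2 fold change of the 8 collagens was −0.02. Col3a1, the chain of collagen III, ranged from 10.40 to 10.77 in WT and from 10.13 to 10.58 in HDAC4 KO arrays. All 10 HDAC4 KO arrays lay below the WT median and 4 below every WT array, yet the difference of −0.21 (SE 0.06) did not pass (adjusted p = 0.0872). Its second probe set gave −0.19 (adjusted p = 0.332).

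The chains of collagen I, Col1a1 and Col1a2, differed by 0.07 (SE 0.10) and −0.05 (SE 0.06). Col5a1 and Col5a2, chains of collagen V, which sets fibril width, differed by 0.03 and −0.001 at the brightest probe set. For Col5a1 another probe set gave −0.16 (SE 0.05, adjusted p = 0.107), with 7 WT arrays above every HDAC4 KO array, so the probe sets of that gene did not move alike. The collagen VI chains Col6a1 and Col6a2, which form beaded filaments, differed by 0.02 and −0.09, and Col8a1, a network collagen, by −0.18 (adjusted p = 0.174).

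Among the 6 small leucine-rich proteoglycans 1 was positive at its brightest probe set, their median was −0.10, and 0 were called (limma). Of the 6, 2 were lower at an unadjusted p below 0.05, which 19.0% of all genes reached in either direction. Lum (lumican), which binds collagen fibrils, ranged from 7.44 to 7.90 in WT and from 7.06 to 7.62 in HDAC4 KO arrays. There, 8 WT arrays lay above every HDAC4 KO array. The difference was −0.25 (SE 0.07, adjusted p = 0.0642), and without WT replicate 10, the lowest of its group, it was −0.28 (adjusted p = 0.0378).

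Ogn (osteoglycin) ranged from 7.76 to 8.51 in WT and from 7.29 to 8.18 in HDAC4 KO arrays at its second probe set, a difference of −0.33 (SE 0.10, adjusted p = 0.0782), and differed by −0.17 at its brightest probe set. HDAC4 KO replicate 8 was the lowest array of its group for Lum, Postn and both probe sets of Ogn, and for Aebp1 at its second probe set but not at its brightest. Fmod (fibromodulin) differed by −0.21 (adjusted p = 0.270), with all 6 of its probe sets negative. Bgn (biglycan) and Dcn (decorin) differed by −0.01 and −0.04.

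Prelp, a proteoglycan that anchors basement membranes, differed by 0.02 at its brightest probe set and by −0.19 (SE 0.06, adjusted p = 0.110) at its second probe set, whose signal of 4.91 to 5.57 is below the array median. At that dim probe set it was the single member called within a sex. It fell by 0.40 in arrays labelled female (SE 0.06, adjusted p = 0.0116, 5 arrays per genotype) and differed by 0.02 in those labelled male. The difference between the sexes did not pass the test for interaction (adjusted p = 0.915, limma). That test called 0 of the 75 member probe sets and 0% of all, and 0 were called with trend and robust moderation. At an unadjusted p under 0.05 stood 3 of the 75, and 5.35% of all probe sets. Without the 3 arrays whose sex-linked genes disagree with the label, the interaction test again called 0 members (lowest adjusted p = 0.242).

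None of the 7 genes of meningeal identity, retinoid and transport passed (limma). At the brightest probe set 0 of them had an unadjusted p under 0.05, which 19.0% of all genes had. Foxc1 and Tbx18, transcription factors of meningeal and mural development, differed by 0.06 each, Aldh1a2, which makes retinoic acid, by 0.05, and Crabp2, which carries retinoic acid to the nucleus, by −0.13 (adjusted p = 0.315). Ptgds, the prostaglandin D synthase, differed by −0.05, and Slc6a13, a GABA and taurine transporter, by −0.03. Islr, a secreted or membrane-anchored protein of mesenchymal cells, differed by −0.003.

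The mean signal of the 34 members, taken as a plain average of log2 values per array, lay between 8.34 and 8.61 in WT and between 8.38 and 8.55 in HDAC4 KO arrays (8.50 ± 0.09 and 8.48 ± 0.06, SD, n = 10 each). WT replicate 5, an array whose sex-linked genes go against its label, was the lowest WT array in the mean of the collagens, the proteoglycans, the glycoproteins and the processing genes. With the gap between 3′ and 5′ controls as a covariate, 43 probe sets were called overall in place of 927. The covariate averaged higher in HDAC4 KO arrays, with overlapping ranges of 0.15 to 0.23 in WT and 0.18 to 0.26 in HDAC4 KO arrays. Its difference between genotypes and its part in the results were not tested.

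**Figure D3:**
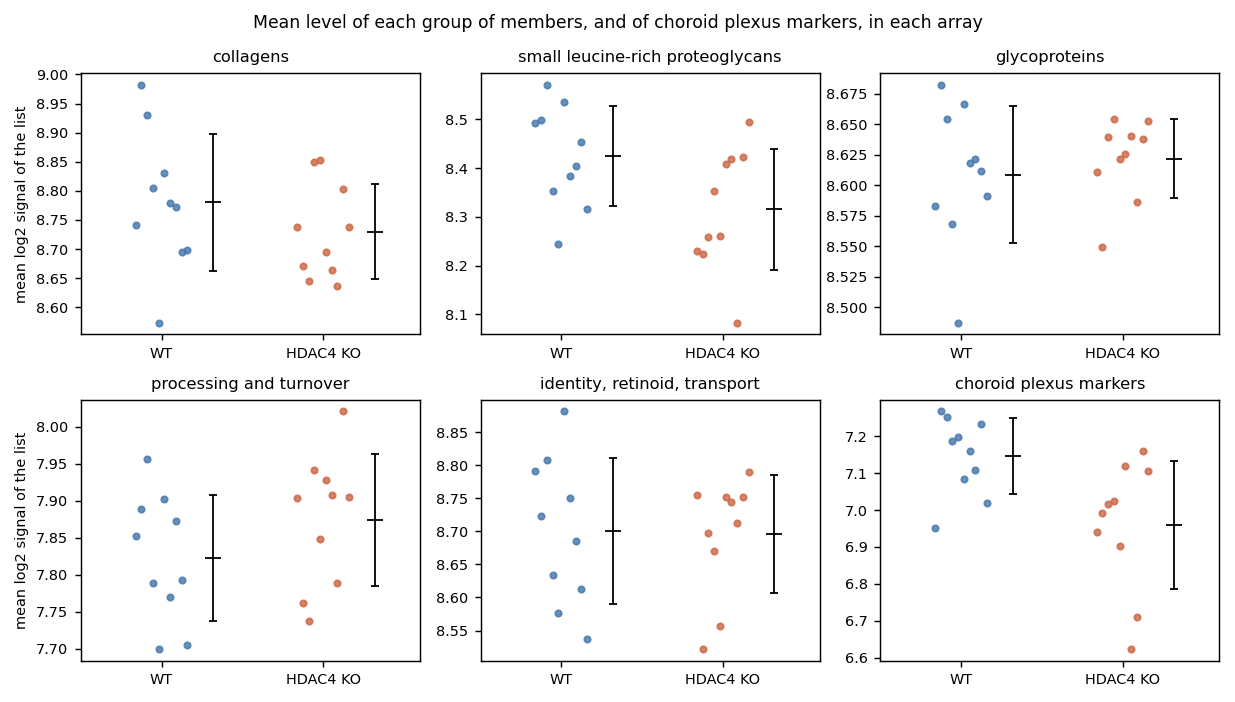
Mean log2 signal (y axis) of each group of members and of the choroid plexus markers in each of the 10 WT and 10 HDAC4 KO arrays, with mean and SD beside the points; axes differ between panels. The groups of members overlap across their range, and the choroid plexus mean reaches lower in HDAC4 KO arrays.

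The wider matrix and meningeal lists held a few changes. Of 23 other collagens none was called (at an unadjusted p under 0.05 in limma, 5 were higher and 2 lower). Likewise 0 of the 20 genes of collagen folding, hydroxylation and cross-linking were called (4 higher and 3 lower before adjustment). Before adjustment 19.0% of all genes reached that p in either direction. Of 31 other matrix genes 1 was called higher, where 1.45% of all genes were. This was Ccn2, a matricellular growth factor modulator, which rose by 0.29 (SE 0.06, adjusted p = 0.0233, limma). Of 37 other meningeal fibroblast and arachnoid genes, 5 had a called probe set. Of their 78 probe sets 4 were higher (1.05% of all) and 2 lower (1.01% of all), and at the brightest probe set 1 gene was higher (Igfbp6, 1.45% of all genes) and 1 lower (Igfbp2, 0.517% of all genes), so the calls of Cxcl12, Foxp1 and Bmp5 are at probe sets that are not the brightest. The chemokine Cxcl12 rose by 0.18 (adjusted p = 0.0315), the insulin-like growth factor binding protein Igfbp6 by 0.50 (adjusted p = 0.0347) and the transcription factor Foxp1 by 0.22 and 0.13 at a pair of probe sets (adjusted p = 0.0179 and 0.0470), whereas Igfbp2 fell by 0.20 (adjusted p = 0.0221) and the signalling protein Bmp5 by 0.22 (adjusted p = 0.0442). Of 14 genes of retinoic acid signalling 1 was called higher, where 1.45% of all genes were. This was Stra6, the receptor for retinol-binding protein, which rose by 0.29 (adjusted p = 0.0221, limma). Called probe sets of Stra6, Igfbp6 and Bmp5 are dim, with WT means of 5.74, 5.67 and 4.74. Their HDAC4 KO means were 6.03, 6.16 and 4.52, and all these lie below the lowest array median of 6.26. Timp2, an inhibitor of metalloproteinases, and Fstl1, a secreted glycoprotein, differed by 0.12 and 0.11 without passing.

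Markers of other tissues that a dissected brain can carry were read beside these values. Of 14 choroid plexus markers 3 fell at the brightest probe set, where 0.517% of all genes did, as did 4 of their 25 probe sets (1.01% of all). They were Sostdc1 (by 0.30 at each of its probe sets called, adjusted p = 0.0198 and 0.0478), Calml4 (by 0.38, adjusted p = 0.0368) and Ttr (by 0.14, adjusted p = 0.0420). None rose, and the mean level was 6.95 to 7.27 in WT and 6.62 to 7.16 in HDAC4 KO arrays. That level correlated with Lum (r = 0.64) and Col3a1 (r = 0.53) across the arrays after centring within genotype, and its part in their differences was not tested. The 12 meningeal fibroblast markers, which overlap the members, gave no call and a mean of 8.46 to 8.81 in WT and 8.44 to 8.67 in HDAC4 KO arrays. Endothelium (12 genes), pericytes and smooth muscle (10), erythroid cells (6), bone and cartilage (11), skeletal muscle (9), skin epidermis (7), pituitary (6), the oligodendrocyte lineage (9) and macrophages and microglia (10) had 0 called probe sets. Of the 10 macrophage and microglia markers, 4 were higher and 0 lower at an unadjusted p under 0.05 (limma), which 19.0% of all genes reached in either direction. These 10 markers had a median log2 fold change of 0.14. Their mean level was 7.93 ± 0.09 in WT and 8.02 ± 0.13 in HDAC4 KO arrays (SD, n = 10 each), and its part in the members' differences was not tested. Neurons (11 genes) had 3 of 27 probe sets lower (1.01% of all), of Slc17a6, Syt1 and Nefl. Nefl was the 1 called at its brightest (0.517% of all genes). The mean of the bone and cartilage markers was 5.23 to 5.38 in WT and 5.27 to 5.73 in HDAC4 KO arrays, with HDAC4 KO replicate 5 highest, which is also the array with the highest Col1a1 signal of its group (8.97).

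Correlations among the members across arrays were mostly positive. After the mean of each genotype was removed, the median Pearson r over the 561 pairs of members was 0.28 (n = 20 arrays), against 0.03 over all pairs of genes and 0.08 among genes above the array median. Of the member pairs 18.7% had r above 0.5, against 4.61% of all pairs, and 16.0% were below 0. Within WT the median was 0.43 and within HDAC4 KO 0.17. Leaving out 1 array at a time gave 0.21, without WT replicate 5, to 0.30. Without that array the WT median was 0.33. The difference between genotypes was not tested. All pairs are read from the same 20 arrays, and these correlations are a description.

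**Figure D4:**
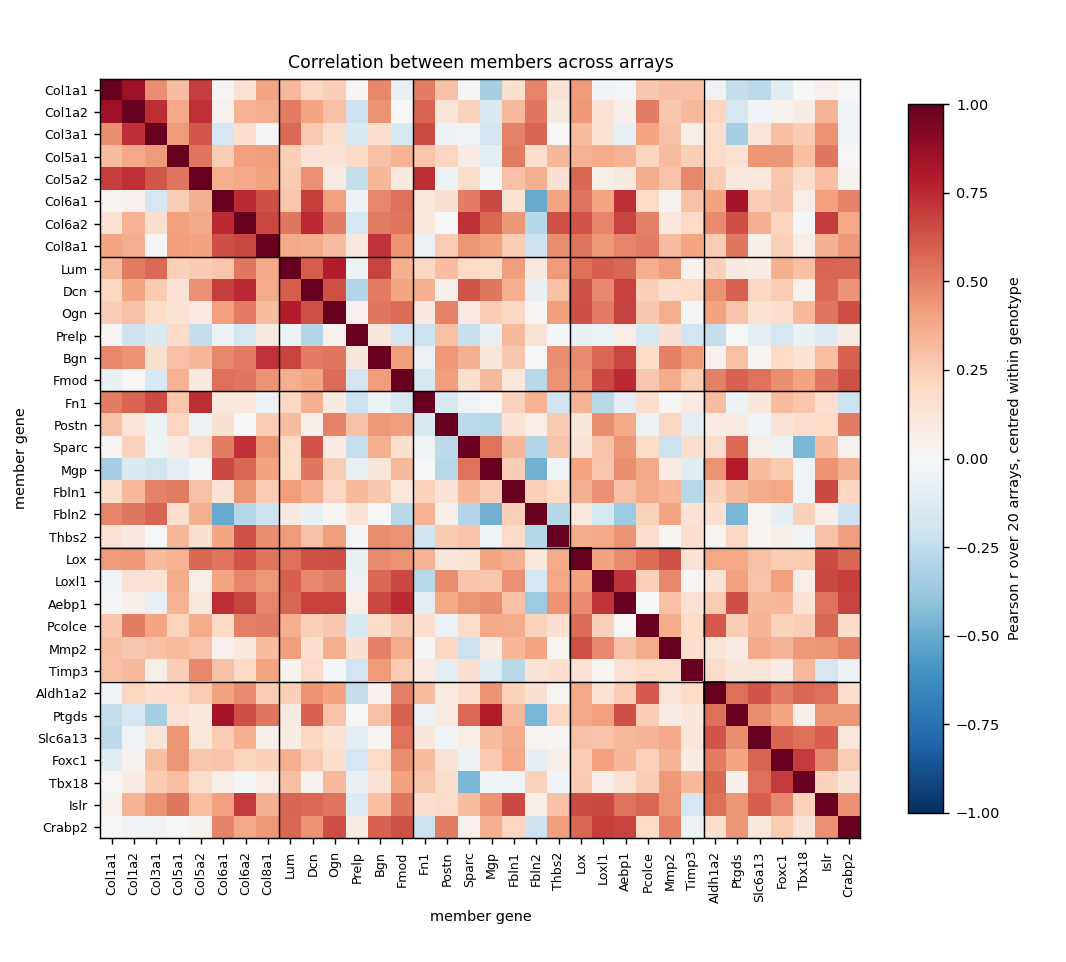
Pearson r between every pair of the 34 members over 20 arrays after centring within genotype, from −1 (blue) to 1 (red), ordered by group with lines between groups. The highest value, 0.85, is that of Col1a1 with Col1a2, and the lowest, −0.50, that of Col6a1 with Fbln2.

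Some sets of members, chosen after their values were seen, stood out. Col1a1, Col1a2, Col3a1 and Col5a2 varied with Fn1, with r of 0.74 between Col5a2 and Fn1 and between Col1a2 and Col3a1. Col6a1, Col6a2, Dcn, Mgp and Ptgds varied with one another, with r of 0.82 between Col6a1 and Ptgds, 0.79 between Mgp and Ptgds, 0.74 between Col6a1 and Col6a2 and 0.74 between Col6a2 and Dcn. Over the 25 pairs between these sets r had a median of 0.10 and ranged from −0.34 to 0.46, the latter for Col5a2 with Dcn. The median was 0.67 over the 10 pairs within the first set and 0.68 over the 10 within the other. Picking sets by their r makes such medians high within and low between, so nothing is concluded from them. Members left out went with both sets. Lox had r of 0.58 with Col5a2 and 0.64 with Dcn, and Lum 0.57 with Col3a1 and 0.60 with Dcn. For Col1a1 with Col6a1, Col6a2, Dcn, Mgp and Ptgds, r within WT was 0.52, 0.45, 0.55, −0.21 and 0.25. Within HDAC4 KO it was −0.22, −0.22, −0.13, −0.42 and −0.50. Col3a1 with Ptgds gave 0.29 in WT and −0.67 in HDAC4 KO. In these pairs, picked from the 25, r was lower within HDAC4 KO than within WT. The pairs with Col1a1 share its values, of which HDAC4 KO replicate 5 had the highest of its group (8.97). The other pairs between the sets are not given by genotype here, and the difference between genotypes was not tested. A further pair stood out in the proteoglycans, Lum with Ogn (0.78), and another in the identity genes, Foxc1 with Tbx18 (0.70). Col6a2 had the highest median r with the other members, 0.47, followed by Islr with 0.45, and Prelp the lowest, −0.07. Median r was 0.47 within the identity genes, 0.42 within the proteoglycans, 0.40 within the collagens, 0.30 within the processing genes and 0.07 within the glycoproteins.

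Col1a1 and Col1a2, whose products join in 1 triple helix, were the closest pair. Col1a1 ranged from 8.13 to 8.87 in WT and from 8.13 to 8.97 in HDAC4 KO arrays, a wider spread than most members had. Pearson r was 0.85 and Spearman rho 0.78 (n = 20, permutation p within genotype, two-sided, 1e-05, the smallest that 100000 resamples can give, and 9.00e-05). It was 0.78 within WT and 0.90 within HDAC4 KO, and 0.76 without the 2 arrays farthest from the median of Col1a1. A limma fit of every gene on the level of Col1a1 with genotype gave Col1a2 a slope of 0.54 (SE 0.09), which did not pass over all 45035 probe sets (adjusted p = 0.123). In that fit 0 of 33 members and 0% of genes rose with Col1a1 at the adjusted threshold. At an unadjusted p under 0.05, 18.2% of members and 1.12% of genes rose with it, and 24 of the 33 members had a positive slope, against 37.5% of genes. Col5a2 (slope 0.41), Fn1 (0.23), Fbln2 (0.25) and Col3a1 (0.30) followed Col1a2, and Bgn was the sixth with a p under 0.05. Of 33 pairs with Col1a1, the lowest r were those of Mgp (−0.33), Slc6a13 (−0.26), Ptgds (−0.24), Foxc1 (−0.11) and Fmod (−0.07). In the same order they were −0.36, −0.04, −0.26, −0.03 and −0.03 without HDAC4 KO replicate 5. Within WT they were −0.21, 0.22, 0.25, 0.39 and 0.30, and within HDAC4 KO −0.42, −0.74, −0.50, −0.56 and −0.27. The r of Col1a1 with Col5a2 was 0.69 (permutation p = 0.00056, 0.56 without the 2 arrays farthest from the median). In the limma fit over all probe sets Col5a2 did not pass (adjusted p = 0.631). The permutation p of Col1a1 with Col1a2 and with Col5a2 are not adjusted for the number of pairs seen.

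Outside the module the genes with the largest slope t on Col1a1 were Car3, Mmp9, Ahnak, Mmp13, Fyttd1, Emp1, Zfp616, Kazald1, Cd59a, Ccdc39, Ro60, Ctsk, Adarb2, Actr3 and D2hgdh, with adjusted p from 0.353 to 0.747. Mmp9, Mmp13 and Ctsk are proteinases with known high levels in bone-resorbing or cartilage cells, and the bone and cartilage mean correlated with Col1a1 at r = 0.46. That value rested on HDAC4 KO replicate 5, without which it was −0.13. Without the same array, the r of Col1a1 with Col1a2 was 0.82.

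**Figure D5:**
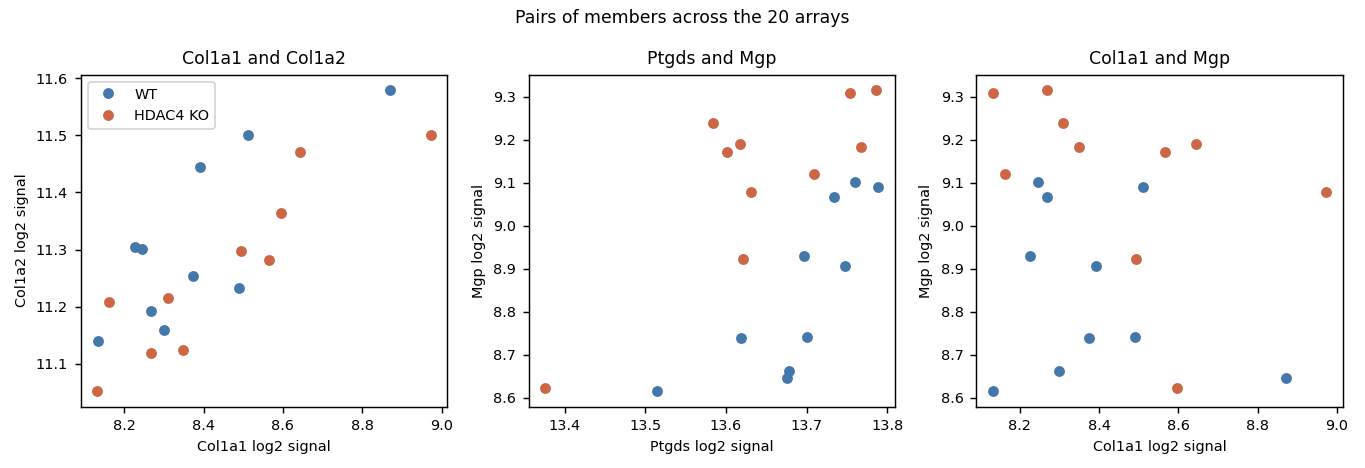
Each point is 1 array, with the log2 signal of a member on each axis, WT in blue and HDAC4 KO in orange. Col1a2 rises with Col1a1 and Mgp with Ptgds in both genotypes, and Mgp shows no rise with Col1a1.

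With Col3a1 in place of Col1a1, 1 of 33 members rose, Col1a2 (slope 0.73, SE 0.16, adjusted p = 0.0391), where 0.137% of genes did. Of all genes 25 rose with Col3a1 and 154 fell. The 6 outside the module with the largest t were Tmpo, Tnrc6b, E030024N20Rik, Ezh2, Bnc2 and Vim. They are named here after their values were seen, with adjusted p from 0.0213 to 0.0312 (limma). With Dcn 0 members and 0% of genes passed, and 45.5% of members and 2.22% of genes rose at an unadjusted p under 0.05, among them Col6a2 (slope 0.62) and Col6a1 (0.66). With Ptgds, an anchor chosen after its values were seen, 0 members and 0.0385% of genes passed, and Col6a1 and Mgp stood just outside (slopes 1.08 and 1.56, adjusted p = 0.0534 each). The r of Ptgds with Mgp was 0.79 (rho 0.66, permutation p = 5.00e-05) and 0.59 without the 2 arrays farthest from the median of Ptgds. That p is not adjusted for picking the pair after all pairs were seen, so nothing is concluded from it. Without the same 2 arrays the r of Ptgds with Col6a1 fell from 0.82 to 0.61 and with Dcn from 0.59 to 0.32.

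Of the 34 members 5 lie on chromosome 1 with Hdac4, namely Col3a1, Col5a2, Prelp, Fmod and Fn1, and none of them was called in the comparison of all arrays.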

How the data were processed

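RNA of 20 whole brains at postnatal day 3 was hybridised to 1-colour arrays from 200 ng of total RNA. The authors deposited normalized log2 signals per probe set, and the sources used here name no summary method. No further normalization was applied. The 64 control probe sets were left out. Symbols came from the platform annotation (34945 probe sets with 1 symbol, 932 with several, 9160 with none), and the brightest probe set stood for a gene. The members and all gene lists were chosen with earlier results of these data known. HDAC4 KO and WT arrays were compared in limma 3.58.1 (lmFit, eBayes; R 4.3.3), with Benjamini-Hochberg adjustment over 45037 probe sets and a threshold of 0.05. The methods' t-test, covariates, a replicate block, filters, normalizations, weights and arrays left out were alternatives. Full values are given for members called and, up to 10 in all, those with the smallest p. Genotype-centred correlations used numpy 2.4.6 and scipy 1.17.1. The comparison was tested on simulated data. The number of arrays limits the precision.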

Additional observations from a re-analysis of the deposited data

Results flagged for a closer look

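In 5 of the 68 groups of 10 arrays checked (34 members in each genotype, at the brightest probe set), the highest or lowest array stood apart from the nearest by a share of the group's range above Dixon's critical value, and chance gives about 1 in 20. Col1a1 was highest in WT replicate 2 (8.87, nearest array 8.51). Dcn and Lox were lowest in WT replicate 5 (9.57, nearest 9.89, and 6.91, nearest 7.16). Ptgds was lowest in HDAC4 KO replicate 2 (13.38, nearest 13.58) and Timp3 in HDAC4 KO replicate 3 (9.34, nearest 9.62). Without WT replicate 5 Lox stayed called.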

How the results depend on the processing

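The median log2 fold change of the members moved between −0.04 and 0.01 over 33 alternatives, and no named member changed direction in the alternatives run. A switch to the brightest probe set was not among these, and there Col5a1 and Prelp were positive. The methods' t-test put 16 member probe sets at a p under 0.05 and, after Benjamini-Hochberg adjustment, called the same 2 higher and 1 lower. With the 3′ minus 5′ covariate 0 members were higher and 0 lower. Leaving out dim probe sets gave 4 probe sets lower (Aebp1, Lum, Ogn and Postn) and 2 genes lower, trend and robust moderation or array weights 2 lower (Lum and Postn) in both counts, and the mean of a gene's probe sets 1 gene higher (Mmp2) and 2 lower (Aebp1 and Postn). Leaving out WT replicate 8 with HDAC4 KO replicate 10 left 1 higher (Lox), and leaving out the 3 arrays at odds with their sex label 0 higher. Without each array in turn, 1 to 3 were higher and 1 to 2 lower. With Col3a1 as the anchor 1 member rose in place of 0. Outside the mean of probe sets and the arrays left out, the cause was not tested. The replicate block gave 3 higher (Lox, Mgp with adjusted p = 0.0292, and Mmp2) and 1 lower. The replicate numbers gave no pairing, since 1 of 10 same-numbered pairs correlated above 0.1 and 1 of 10 WT arrays correlated best with its own number. The number of arrays and the spread between them limit how small a difference could be called.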
